A study of Homo sapiens with 12 samples.

Results

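The splicing of 3 genes of proline synthesis, PYCR1, PYCRL and ALDH18A1, was followed in HEK293A-TOA cells, a human embryonic kidney line, after knockdown of the splicing factor SFSWAP, of the RNA helicase UPF1, or of both. The members were all skipped exon and retained intron events of these genes that averaged 10 or more reads a library in at least 1 of the event tables, which gave 41 of 145406 such events in the series. PYCR1 held 22 of them, ALDH18A1 held 19, and PYCRL had no listed event and was not analysed here. The genes were selected on the measured inclusion levels of PYCR1 exon 5, the lead event, in siSFSWAP against siNT cells, so the members' values in that contrast are a description with no p-value, and the count of members called in it supports nothing. The 41 members had at least 19.2 reads per library in the table where they were best covered, and the 4 events left out had at most 6.67.

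ALDH18A1 (P5CS) turns glutamate into pyrroline-5-carboxylate, and the reductases PYCR1 in mitochondria and PYCRL (also called PYCR3) in the cytosol reduce this intermediate to proline at the expense of NADH or NADPH. The pathway supplies proline for protein synthesis and collagen and links it to the redox balance of growing cells. SFSWAP is a splicing factor related to the SR proteins, and UPF1 is the helicase at the centre of nonsense-mediated decay, the pathway that degrades mRNAs whose stop codon lies well upstream of a later exon junction.

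The 12 libraries came from 4 groups of 3 biological replicates: siSFSWAP/siUPF1 cells (SFSWAP and UPF1 knocked down), siNT/siUPF1 cells (non-target siRNA with UPF1 knocked down), siSFSWAP cells (SFSWAP knocked down) and siNT cells (non-target siRNA). Every group was grown for 5 days after the first transfection, with 40 nM siRNA for SFSWAP and 30 nM for UPF1 where applied, and every group, the controls included, received 1 μM TG (Thiamet-G, an inhibitor of O-GlcNAcase) for 6 hours. Single siRNAs against SFSWAP were not compared, and cells without TG were not analysed here. Reads at skipped exon events ranged from 25938092 to 40637076 per library. A read that touches several events is counted in each of them, so these sums exceed the number of distinct reads.

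The knockdowns were visible at the 7 SFSWAP and 15 UPF1 skipped exon events shared by both tables. Here and for the member genes below, values per 1000000 skipped exon reads rest on a smaller base than the sums of reads given above. SFSWAP averaged 22.4 ± 7.99 reads per 1000000 skipped exon reads in siSFSWAP/siUPF1 cells, against 54.5 ± 7.84 in siNT/siUPF1 cells, and 21.9 ± 4.42 in siSFSWAP cells, against 54.3 ± 1.56 in siNT cells (SD, n = 3 each). UPF1 averaged 119 ± 34.3 in siSFSWAP/siUPF1 cells, against 348 ± 30.1 in siSFSWAP cells, and 87.4 ± 24.4 in siNT/siUPF1 cells, against 295 ± 53.3 in siNT cells. None of these 4 pairs overlapped, and each gave p = 0.1 in a two-sided exact permutation test, the smallest that 3 against 3 libraries allow. UPF1 reads were 1.36 times as high in siSFSWAP/siUPF1 as in siNT/siUPF1 cells, a difference within the spread of the libraries (exact permutation p = 0.3).

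PYCR1 lies on the minus strand of chromosome 17, and its exons are numbered here by the MANE transcript in GENCODE 44. The sequences that carry the finding are exon 5, the neighbouring exon 6, and the exon 4 donor and exon 7 acceptor that are joined when both are left out. They were read 5′ to 3′ from the GRCh38 reference, with exon bases in capitals and 20 intron bases before and 8 after each exon in lower case. Exon 5 covers chr17:81934653-81934745 and exon 6 covers chr17:81934326-81934489.
PYCR1 exon 4 donor: GGCCCCGCCTACgtaaggac
PYCR1 exon 5: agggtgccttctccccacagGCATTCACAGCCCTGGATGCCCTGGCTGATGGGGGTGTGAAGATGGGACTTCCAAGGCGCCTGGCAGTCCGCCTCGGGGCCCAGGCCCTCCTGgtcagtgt
PYCR1 exon 6: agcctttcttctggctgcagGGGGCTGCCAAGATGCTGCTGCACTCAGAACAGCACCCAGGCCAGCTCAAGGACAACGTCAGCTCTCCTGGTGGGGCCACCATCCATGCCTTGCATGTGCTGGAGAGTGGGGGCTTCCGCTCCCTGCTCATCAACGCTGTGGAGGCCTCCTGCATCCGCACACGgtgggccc
PYCR1 exon 7 acceptor: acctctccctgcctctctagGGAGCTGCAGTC

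Exon 5 is 93 nt long with a GC content of 67.7%, and the introns on its sides are 180 and 163 nt long. Among 30740 exons tested with UPF1 knocked down, 98.1% had a lower GC content (median 48.2%), and for 1.53% the longer of the introns on their sides was shorter than 180 nt (median 3294 nt). Exon 6, with 164 nt and 63.4% GC, shares the 163 nt intron 5 and is followed by an intron of 949 nt. The last 20 bases held 12 pyrimidines in intron 4, 13 in intron 5 and 16 in intron 6.

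Exon 5 encodes codons 181 to 211 of the 319 codons of PYCR1 and keeps the reading frame when it is left out, which leaves 288 codons. The joining of exon 4 to exon 7 removes exons 5 and 6, a total of 257 nt that is not a multiple of 3, and the reading frame then ends after 186 codons. Exon 6 alone takes 164 nt, and the frame without it ends after 217 codons. In both of these forms the stop codon lies in exon 7, the last exon, so no exon junction follows it. GENCODE lists the exon 4 to 6 junction in 1 of 17 PYCR1 transcripts, the 4 to 7 junction in 1 and the 5 to 7 junction in 2.

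SFSWAP knockdown was first compared in cells with UPF1 also knocked down. The inclusion levels of these libraries were not those that chose exon 5, but earlier results of these data were known. The form of exon 5 that leads was the one with the most reads over the 12 libraries. PYCR1 exon 5, measured between exons 4 and 6, had inclusion levels of 0.939, 0.772 and 0.763 in siSFSWAP/siUPF1 libraries, against 0.676, 0.634 and 0.659 in siNT/siUPF1 libraries. The inclusion level is the share of the form with the exon among the 2 forms of an event. It runs from 0 to 1, after division of the reads by the effective length of each form. Reads that join exon 4 to exon 7 also lack exon 5 and count in neither form here, so the level is not the share of all PYCR1 transcripts. All 3 siSFSWAP/siUPF1 libraries were above all 3 siNT/siUPF1 libraries, with means of 0.825 ± 0.0993 and 0.656 ± 0.0216 (SD, n = 3 each). The reads behind these levels were 60, 59 and 75 for inclusion and 2, 9 and 12 for skipping in siSFSWAP/siUPF1 libraries, against 73, 57 and 75 for inclusion and 18, 17 and 20 for skipping in siNT/siUPF1 libraries. The log2 odds ratio of inclusion was 1.18 ± 0.62 (SE), and it did not pass the test over all events (quasi-binomial fit with limma's moderated dispersion, p = 0.0542, Benjamini-Hochberg adjusted p = 0.25). The exact permutation test of the levels gave p = 0.1, the smallest possible here. The difference in mean level was 0.168, and 0.111 without the first siSFSWAP/siUPF1 library.

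Exon 5 was also measured against its skipping to exon 7. In this form its level was 0.828, 0.844 and 0.764 in siSFSWAP/siUPF1 libraries, against 0.709, 0.403 and 0.677 in siNT/siUPF1 libraries. The groups did not overlap, and the log2 odds ratio was 1.63 ± 0.78 (SE, limma-moderated fit, p = 0.0308, adjusted p = 0.181, exact permutation p of the levels = 0.1). Exon 6 between exons 4 and 7 had levels of 0.827, 0.833 and 0.693 in siSFSWAP/siUPF1 libraries, against 0.703, 0.323 and 0.588 in siNT/siUPF1 libraries, where the lowest siSFSWAP/siUPF1 library was below the highest siNT/siUPF1 library. Its log2 odds ratio was 1.78 ± 0.79 (SE, adjusted p = 0.133). Both forms count the same exon 4 to 7 reads as skipping, so they are not separate evidence.

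Exon 6 was also measured in transcripts that contain exon 5. Exon 6 between exons 5 and 7 had levels of 0.899, 0.714 and 0.668 in siSFSWAP/siUPF1 libraries, against 0.696, 0.631 and 0.591 in siNT/siUPF1 libraries, and the groups overlapped. The log2 odds ratio was 0.73 ± 0.61 (SE, adjusted p = 0.543). Whether this value differs from those of the exon 4 forms was not tested.

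**Figure D1:**
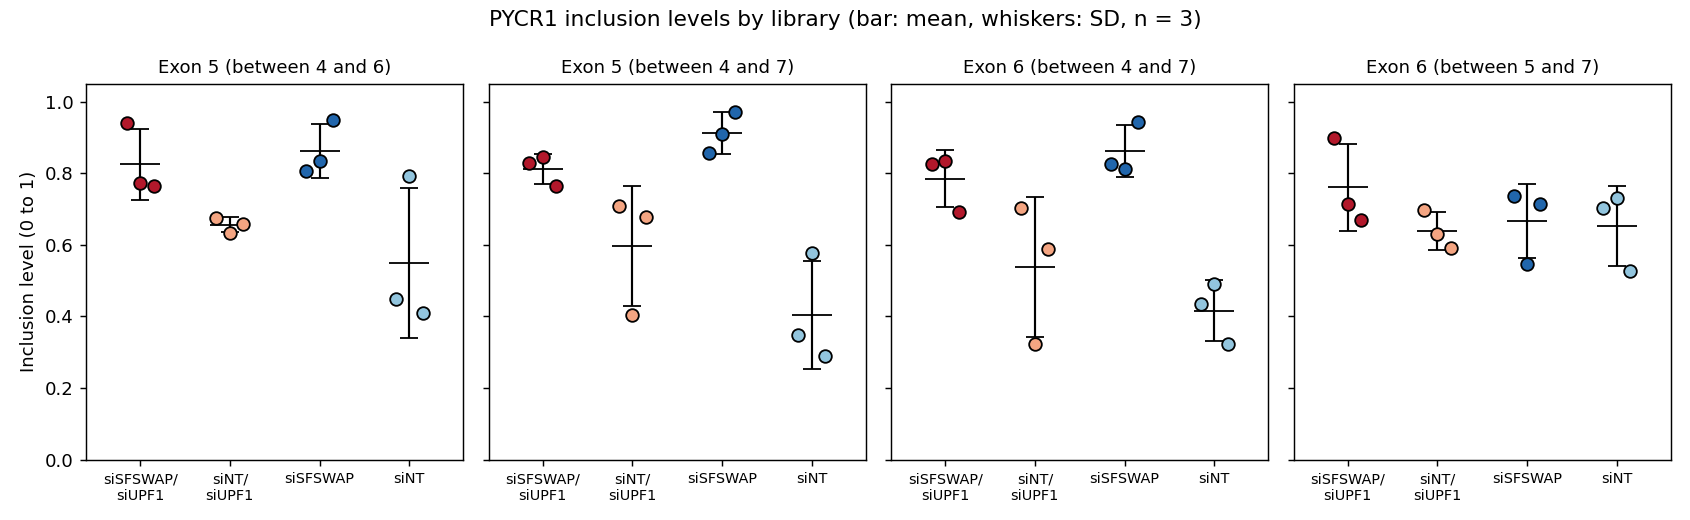
Inclusion level (0 to 1) of PYCR1 exons 5 and 6 in each library of the 4 groups, 1 panel for each pair of flanking exons, with points for libraries, a bar for the mean and whiskers for the SD. In the first panel the 3 siSFSWAP/siUPF1 libraries lie between 0.763 and 0.939 and the 3 siNT/siUPF1 libraries between 0.634 and 0.676, and the siNT library at 0.791 lies apart from the other two. In the last panel the groups overlap.

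Of the 41 members, 7 could be tested for SFSWAP knockdown with UPF1 knocked down. Some of the others were not listed with UPF1 knocked down at all. The test asked for at least 10 reads of each form over the libraries compared. The remaining members fell short of this, most of them with next to no skipping reads. Here and below, exons and introns tested or called are counted as events, so an exon listed with several pairs of flanking exons counts for each pair. Among the 6 skipped exons tested, 0 were called at an adjusted p of 0.05, against 7.52% of the 34006 skipped exons of all genes, and the retained intron tested was not called, against 3.57% of 5105 introns. At an unadjusted p under 0.05 there were 2 of the 6 skipped exons, exon 5 and exon 6 in their forms with exon 7, which share their skipping reads, beside 7128 of all 34006 exons (21%). By limma on log2 odds 0 were called and 1 had an unadjusted p under 0.05. The median log2 odds ratio of the 6 exons was 0.95, against 0.06 over all exons tested. Since 4 of the 6 are overlapping forms of PYCR1 that share reads, the median describes few separate measurements.

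Junction reads leaving exon 4 were then set side by side, a measure chosen after the data had been seen. Exon 4 was joined to exon 5 by 83.3, 71.1 and 62.7% of these reads in siSFSWAP/siUPF1 libraries, against 47.9, 34.8 and 53.4% in siNT/siUPF1 libraries. It was joined to exon 6 by 6.67, 20 and 23.5% in siSFSWAP/siUPF1 libraries, against 37.5, 25.8 and 27.4% in siNT/siUPF1 libraries. The share joined directly to exon 7 was 10, 8.89 and 13.7% in siSFSWAP/siUPF1 libraries, against 14.6, 39.4 and 19.2% in siNT/siUPF1 libraries. None of the 3 shares overlapped between the groups, and each gave an exact permutation p of 0.1, the smallest possible. The 3 shares of a library add up to the whole, and their reads also enter the levels of exons 5 and 6 given above. They are therefore not separate evidence. The shares rest on 126 reads in siSFSWAP/siUPF1 libraries and 187 in siNT/siUPF1 libraries, of which 14 and 47 went to exon 7.

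With UPF1 present the same junctions are given as a description only. The share to exon 5 was 72.9, 77.6 and 93.3% in siSFSWAP libraries, against 28.7, 56.0 and 17.4% in siNT libraries. The exon 4 to 7 junction had 7, 4 and 1 reads in siSFSWAP libraries, against 62, 25 and 44 in siNT libraries, while the exon 5 to 7 junction had 19, 29 and 14 reads in siSFSWAP libraries, against 18, 15 and 19 in siNT libraries. Every siSFSWAP library had fewer exon 4 to 7 reads than every siNT library, and the exon 5 to 7 reads overlapped between the groups.

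**Figure D2:**
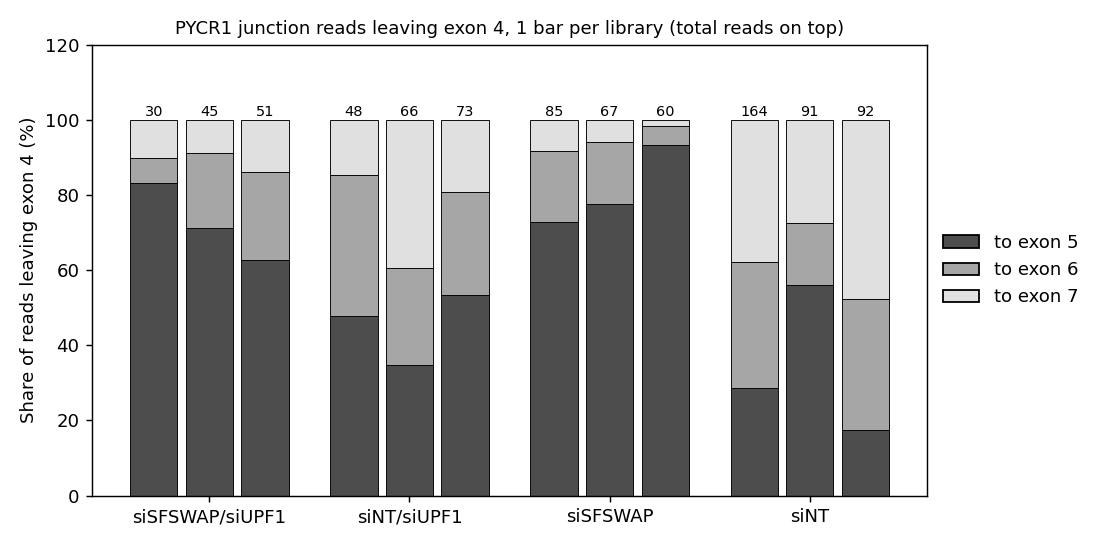
Share (%) of PYCR1 junction reads leaving exon 4 that join exon 5, exon 6 or exon 7, with 1 stacked bar per library and the number of reads on top. The share to exon 5 is 62.7 to 83.3% in siSFSWAP/siUPF1 libraries and 34.8 to 53.4% in siNT/siUPF1 libraries, and the totals run from 30 reads to 164 reads.

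In siSFSWAP against siNT cells, the contrast that chose it, exon 5 between exons 4 and 6 had levels of 0.806, 0.835 and 0.948 in siSFSWAP libraries, against 0.449, 0.791 and 0.409 in siNT libraries. Inclusion reads were 129, 108 and 107 and skipping reads 16, 11 and 3 in siSFSWAP libraries, against 87, 110 and 43 inclusion and 55, 15 and 32 skipping reads in siNT libraries. The means were 0.863 ± 0.0752 and 0.550 ± 0.21 (SD, n = 3 each), and the second siNT library stood close to the siSFSWAP libraries and apart from the other siNT libraries. The log2 odds ratio was 2.28 ± 0.54 (SE), and the difference in level was 0.313, which became 0.434 without the second siNT library and 0.243 without the third. Exon 6 between exons 5 and 7 had a mean level of 0.666 ± 0.104 in siSFSWAP cells and 0.654 ± 0.111 in siNT cells.

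The gene was chosen on this contrast, so members past the threshold in it are only counted. They were 4 of 9 exons, all of PYCR1 and all higher in siSFSWAP cells, beside a background of 12% of 33839 exons, and 0 of 2 retained introns, beside 10.4% of 5845. The 4 were exon 5 in both forms, exon 6 between exons 4 and 7, and a longer form of exon 5 that runs to chr17:81934529-81934745. They are the lead event or share junction reads with it, so the count is no evidence.

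UPF1 knockdown was compared in both backgrounds, with the caution that the siNT and siSFSWAP libraries also belong to the contrast that chose the lead event. With SFSWAP present, exon 5 between exons 4 and 6 averaged 0.656 ± 0.0216 in siNT/siUPF1 cells and 0.550 ± 0.21 in siNT cells, and the siNT libraries lay on both sides of the siNT/siUPF1 libraries. The log2 odds ratio was 0.66 ± 0.50 (SE, limma-moderated fit, adjusted p = 0.664). The size of this difference rested on single siNT libraries, since it was 0.107 over all libraries, 0.227 without the second siNT library, 0.0563 without the first and 0.0364 without the third. With SFSWAP knocked down, exon 5 averaged 0.825 ± 0.0993 in siSFSWAP/siUPF1 cells and 0.863 ± 0.0752 in siSFSWAP cells, and the log2 odds ratio was -0.44 ± 0.65 (SE, adjusted p = 0.999). This difference, of -0.0385, was 0.00415 without the third siSFSWAP library.

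Exon 5 measured to exon 7 had a log2 odds ratio of 1.07 ± 0.53 in siNT/siUPF1 against siNT cells (SE, limma-moderated fit, p = 0.0469, adjusted p = 0.43, exact permutation p of the levels = 0.2). It had -1.22 ± 0.92 in siSFSWAP/siUPF1 against siSFSWAP cells (SE, adjusted p = 0.995), where the 3 siSFSWAP/siUPF1 libraries were all below the 3 siSFSWAP libraries. Of 7 member exons tested in each comparison, 0 were called with SFSWAP present, against a background of 1.17% of 28261 exons, and 0 with SFSWAP knocked down, against 0.0816% of 25748. At an unadjusted p under 0.05 there was 1 of the 7 with SFSWAP present, beside 11.4% of all exons, and 0 with SFSWAP knocked down, beside 4.97%. By limma on log2 odds 0 were called in each. No member intron could be tested in these comparisons, in which 0.0659% of 3034 and 0.166% of 3015 introns of all genes were called.

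By mean level the groups ran upward from siNT (0.550) through siNT/siUPF1 (0.656) and siSFSWAP/siUPF1 (0.825) to siSFSWAP (0.863). Of the neighbours in this order, siNT and siNT/siUPF1 overlapped, as did siSFSWAP/siUPF1 and siSFSWAP, while siNT/siUPF1 and siSFSWAP/siUPF1 did not. Whether the effect of SFSWAP knockdown on exon 5 differs between cells with and without UPF1 knockdown was not tested, since the contrast with UPF1 present chose the event.

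**Figure D3:**
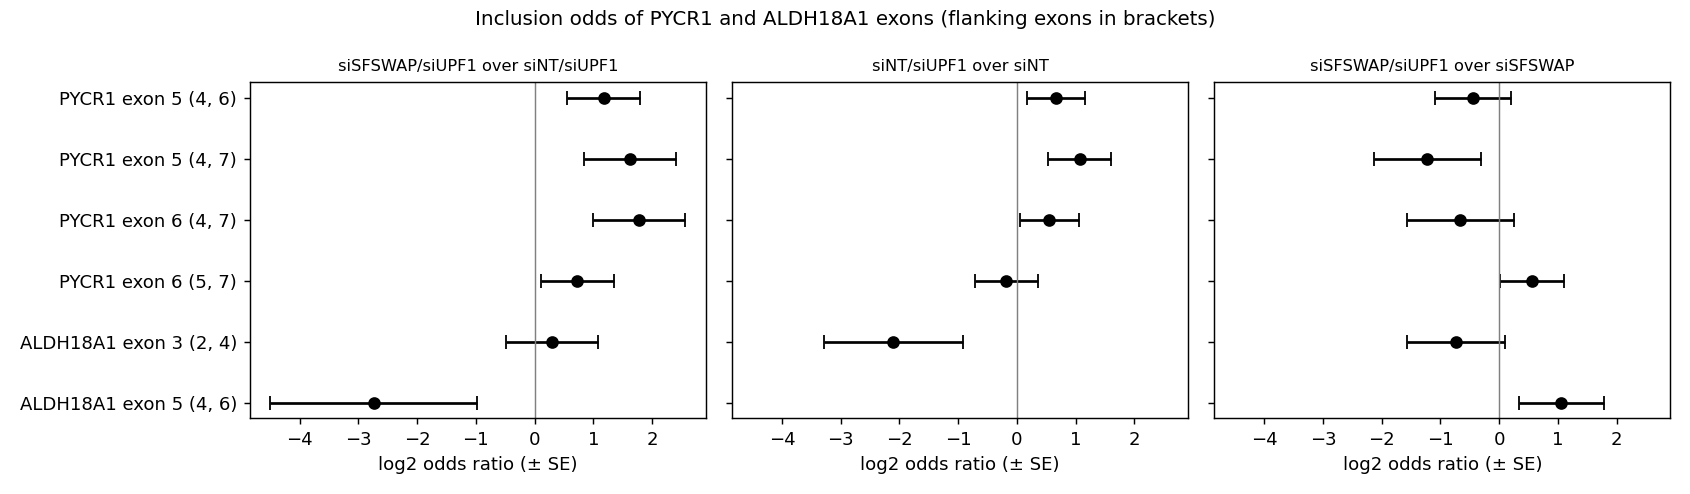
Log2 odds ratio of inclusion (points) with its SE (whiskers) for PYCR1 and ALDH18A1 exons in the 3 comparisons with a test, flanking exons in brackets, positive for more inclusion in the group named first. PYCR1 exon 5 is at 1.18 and ALDH18A1 exon 5 at -2.74 in siSFSWAP/siUPF1 over siNT/siUPF1, and no exon shown passed an adjusted p of 0.05. ALDH18A1 exon 5 has no point in the middle panel because it had too few skipping reads.

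The rest of PYCR1 was spliced almost without skipping. Of its 18 skipped exon members, 12 had too few reads of 1 form for any test, and some of these were listed with UPF1 present only. Their levels lay above 0.5 in every library with a level. The lowest value was 0.587, in 1 siNT library, for a form whose skipping joins exon 2 to exon 7. Exon 2 (chr17:81936123-81936193) averaged 1.00 in siSFSWAP/siUPF1 cells and 0.959 ± 0.0475 in siNT/siUPF1 cells, and 0.981 ± 0.0325 in siSFSWAP cells and 0.966 ± 0.0378 in siNT cells (SD, n = 3 each), with overlap in both pairs. Intron 4, between exons 4 and 5, was retained at a mean of 0.0315 ± 0.0312 in siSFSWAP/siUPF1 cells and 0.0147 ± 0.0255 in siNT/siUPF1 cells, a log2 odds ratio of 1.52 ± 1.54 (SE, limma-moderated fit, adjusted p = 0.728). In the table with UPF1 present, intron 4 was listed with a shorter exon 4, and its levels were 0.0113, 0.0201 and 0.0247 in siSFSWAP libraries, against 0.0293, 0.0204 and 0.134 in siNT libraries. The other PYCR1 intron events lie inside annotated exons. The one inside exon 7 was at 0.851 to 1.00 in every library, and an antisense gene overlaps it, while the one inside exon 1, listed with UPF1 present only, was at 0.84 to 1.00.

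ALDH18A1, which starts the pathway, lies on the minus strand of chromosome 10. Its exon 5 (chr10:95637093-95637197), of 105 nt and 56.2% GC between introns of 89 and 3443 nt, was the only exon of the gene whose levels separated the groups in both SFSWAP contrasts. It was picked for that reason, so its lack of overlap and its exact permutation p given below restate the choice. How many exons of all genes separate in both contrasts was not counted. Its sequence is shown again with exon bases in capitals.
ALDH18A1 exon 5: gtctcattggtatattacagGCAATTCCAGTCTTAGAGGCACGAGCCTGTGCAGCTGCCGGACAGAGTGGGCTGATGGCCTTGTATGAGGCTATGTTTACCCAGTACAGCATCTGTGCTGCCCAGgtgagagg

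ALDH18A1 exon 5 was nearly constitutive. Its level was 0.982, 0.993 and 0.981 in siSFSWAP/siUPF1 libraries, against 1.00, 0.997 and 0.997 in siNT/siUPF1 libraries, from 4, 2 and 7 skipping reads against 0, 1 and 1. The groups did not overlap, but the difference did not pass the test over all events, with a log2 odds ratio of -2.74 ± 1.76 (SE, limma-moderated fit, p = 0.0611, adjusted p = 0.267) and an exact permutation p of 0.1. In siSFSWAP libraries the level was 0.968, 0.967 and 0.975 from 13, 14 and 9 skipping reads, against 0.994, 0.995 and 0.990 from 2, 2 and 3 in siNT libraries, which is given as a description. The direction, lower inclusion in the knockdown, is the opposite of that of PYCR1 exon 5, and the difference between the genes was not tested.

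For UPF1 knockdown, ALDH18A1 exon 5 averaged 0.985 ± 0.00703 in siSFSWAP/siUPF1 cells and 0.970 ± 0.00431 in siSFSWAP cells (SD, n = 3 each), without overlap and with a log2 odds ratio of 1.06 ± 0.73 (SE, limma-moderated fit, adjusted p = 0.995). Exon 3 (chr10:95642992-95643206) averaged 0.980 ± 0.00506 in siNT/siUPF1 cells and 0.996 ± 0.00696 in siNT cells, a log2 odds ratio of -2.10 ± 1.18 (SE, adjusted p = 0.441). Of the 18 skipped exon members of ALDH18A1, 14 had too few reads of 1 form for any test. Among these, 10 had levels of at least 0.937 in every library with a level, and 4 were exons within introns that no such library included above 0.00476. Some of these events were listed only with UPF1 present or only with UPF1 knocked down. Exon 4 was measured between exons 2 and 6, so its skipping form lacks exons 3 and 5 too. In this form exon 4 averaged 0.986 ± 0.0149 in siNT/siUPF1 cells and 0.945 ± 0.0344 in siNT cells (log2 odds ratio 2.12 ± 1.82, SE, adjusted p = 0.67). Exon 9 averaged 0.995 in both siSFSWAP/siUPF1 and siSFSWAP cells. The intron between exons 14 and 15, listed with UPF1 present only, was retained at 0.0117, 0.0204 and 0.0088 in siSFSWAP libraries, against 0.0356, 0.019 and 0.0345 in siNT libraries, which overlapped.

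**Figure D4:**
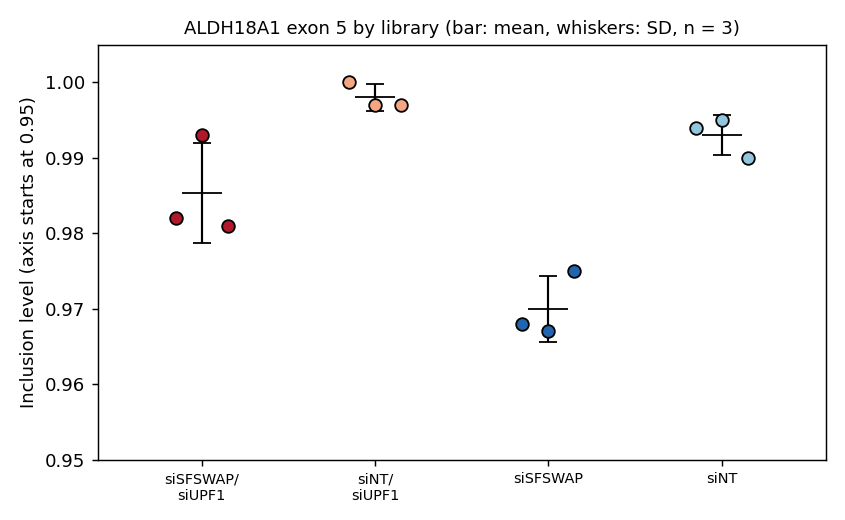
Inclusion level of ALDH18A1 exon 5 in each library, with points for libraries, a bar for the mean and whiskers for the SD, on an axis that starts at 0.95. The siSFSWAP/siUPF1 libraries lie between 0.981 and 0.993 and the siNT/siUPF1 libraries between 0.997 and 1.00, and the siSFSWAP libraries are at most 0.975.

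The reads of the member genes were compared at their skipped exon events that both tables list. As for SFSWAP and UPF1, the base was smaller than the sum of reads at all skipped exon events of a library. PYCR1, at 10 events, had 42.9, 47.8 and 52.2 reads per 1000000 skipped exon reads in siSFSWAP/siUPF1 libraries, against 54.0, 52.8 and 63.8 in siNT/siUPF1 libraries. The groups did not overlap, and the mean was 0.838 times as high with SFSWAP knocked down (exact permutation p = 0.1, the smallest possible). PYCR1 had 82.2, 69.6 and 51.6 in siSFSWAP libraries, against 127, 76.6 and 60.7 in siNT libraries, where the first siNT library was the highest of all. The ratio was 0.645 in siNT/siUPF1 over siNT cells and 0.703 in siSFSWAP/siUPF1 over siSFSWAP cells (exact permutation p = 0.2 in each).

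ALDH18A1, at 9 events, had 215, 231 and 255 reads per 1000000 in siSFSWAP/siUPF1 libraries, against 192, 218 and 242 in siNT/siUPF1 libraries (ratio 1.08, exact permutation p = 0.5). It had 282, 273 and 237 in siSFSWAP libraries, against 209, 245 and 196 in siNT libraries, and the ratio was 0.885 in siSFSWAP/siUPF1 over siSFSWAP cells (exact permutation p = 0.2). It was 1.00 in siNT/siUPF1 over siNT cells (exact permutation p = 1.0). These sums follow both the level of a gene and how its reads fall on the events, and fewer cells and less RNA per cell cannot be told apart in bulk libraries.

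**Figure D5:**
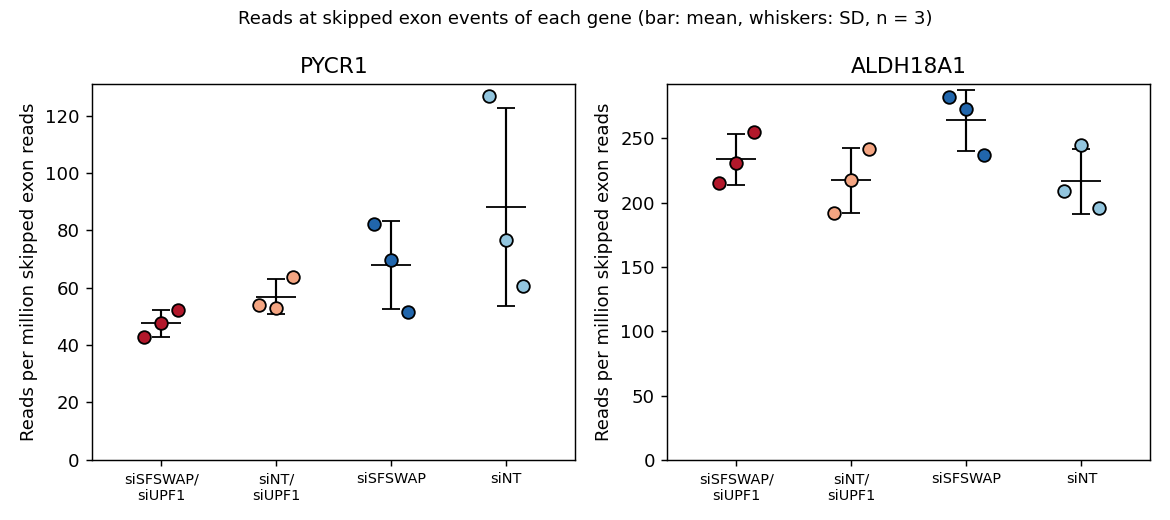
Reads at skipped exon events of PYCR1 and ALDH18A1 per 1000000 skipped exon reads in each library, on the smaller base named in the text. Points stand for libraries, a bar for the mean and whiskers for the SD. PYCR1 lies between 42.9 and 52.2 in siSFSWAP/siUPF1 libraries and between 52.8 and 63.8 in siNT/siUPF1 libraries, and the ALDH18A1 groups overlap.

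Other genes of proline and glutamate metabolism were taken from a list of 23. For SFSWAP knockdown with UPF1 knocked down, 13 of them had 52 tested skipped exons, of which 4 were called, a share of 7.69% beside the background of 7.52% given above. Of these, 3 were higher in siSFSWAP/siUPF1 cells and belong to SLC38A2, a sodium-coupled carrier of glutamine and other neutral amino acids. The exon at chr12:46370512-46370627 had levels of 0.995, 0.883 and 0.951 in siSFSWAP/siUPF1 libraries, against 0.912, 0.719 and 0.896 in siNT/siUPF1 libraries (log2 odds ratio 1.72 ± 0.61, SE, limma-moderated fit, adjusted p = 0.0454), and these groups overlapped. The exon at chr12:46366107-46366240 averaged 0.0344 ± 0.00551 in siSFSWAP/siUPF1 cells and 0.0106 ± 0.00525 in siNT/siUPF1 cells (SD, n = 3 each, log2 odds ratio 1.74, adjusted p = 0.0307), and a longer form of it shares most of its reads. The call of the first exon was lost without the first (adjusted p = 0.444) or the third (0.18) siSFSWAP/siUPF1 library or the second siNT/siUPF1 library (0.401), and that of the second exon without any 1 siSFSWAP/siUPF1 library (0.0598 to 0.15) or the first siNT/siUPF1 library (0.167).

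By limma on log2 odds 0 of the 52 exons were called. None of the 9 tested introns of the list was called, and none had an unadjusted p under 0.05. For UPF1 knockdown 0 of 41 exons were called with SFSWAP present and 0 of 33 with SFSWAP knocked down, by either tool, beside the backgrounds of 1.17% and 0.0816% given above. At an unadjusted p under 0.05 there were 10 of the 41, beside 11.4% of all exons, and 0 of the 33, beside 4.97%. Of 4 introns tested in each of these comparisons 0 were called, and 0 had an unadjusted p under 0.05.

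In siSFSWAP against siNT cells 2 of 44 exons of the list were called, beside the background of 12%. P4HA1, a subunit of the prolyl hydroxylase of collagen, had an exon of 71 nt at levels of 0.296, 0.368 and 0.359 in siSFSWAP libraries, against 0.115, 0.257 and 0.148 in siNT libraries. The exon of GLUL, the glutamine synthetase, was at 0.999 ± 0.00219 in siSFSWAP cells and 0.975 ± 0.0327 in siNT cells, and these groups overlapped. When single libraries were left out, the P4HA1 call was lost in 4 of 6 fits and the GLUL call in 2 of 5. Limma on log2 odds called 0 of the 44 exons, beside 1239 of all 33839.

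The exons most like PYCR1 exon 5 in level were sought among 40657 skipped exon events of other genes with at least 50 reads per library, by the mean absolute difference of inclusion level over the 12 libraries. Among the 5 nearest were exons in PKM, the pyruvate kinase of glycolysis (0.0605), ERCC1, a nucleotide excision repair factor (0.0616), MKI67, the gene of the proliferation marker Ki-67 (0.0645), and AFMID (0.0678). The PKM exon averaged 0.816 in siSFSWAP/siUPF1 cells and 0.638 in siNT/siUPF1 cells, and 0.844 in siSFSWAP cells and 0.523 in siNT cells. These genes were picked for their likeness, so their levels are a description only.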

How the data were processed

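Poly(A) RNA of 12 libraries was sequenced. Adapters were removed by the authors with cutadapt 1.9.1, and alignment used STAR 2.7 and GRCh38.p8 (tools and build as listed in the submitters' processing notes). The authors then counted inclusion and skipping reads per event with rMATS, 3 libraries to a cell. The deposited values used here were these raw read counts and the effective lengths of both forms. The deposited inclusion levels equal the counts divided by these lengths. Columns with the authors' own p-values, adjusted p-values and level differences were not used. The libraries of a cell carry no replicate number and are named by their place in it. Which side of a table holds SFSWAP knockdown follows the order in which the study subtracts the levels, and is checked by the SFSWAP reads in the report.

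Events that averaged 10 or more reads a library and had at least 10 reads of each form over the libraries compared were fitted with a quasi-binomial model in R 4.3.3, its dispersion moderated by limma 3.58.1 and not allowed below 1, over all events of a kind, with Benjamini-Hochberg adjustment and a threshold of 0.05. The code was tested on simulated data. Comparisons between the tables used events with the same coordinates in both. Single values were compared with two-sided exact permutation tests (scipy 1.17.1), for which p = 0.1 is the smallest with 3 against 3. Within groups, no pair of libraries was within sampling noise of each other (chi-square of at least 5.18 per event). The exons named are all members, every called gene of a list of 23 proline and glutamate genes, the 5 exons nearest to the lead, and SFSWAP and UPF1. A few genes that this rule names are not reported here. The members and lists were chosen with earlier results of these data known. The alternatives were another minimum of reads, another dispersion, limma on log2 odds, each library left out, and other measures of exon 5. Counting error alone is not the error given. The SD is between libraries. The SE is the counting error scaled by a dispersion that came mostly from all events together, and little from the event's own libraries. For UPF1 knockdown with SFSWAP knocked down this dispersion was 2.394 for every skipped exon.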

Additional observations from a re-analysis of the deposited data

How the results depend on the processing

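With SFSWAP knocked down in UPF1-depleted cells, and for UPF1 knockdown in both backgrounds, 0 member events were called under each of the 12 alternatives run. PYCR1 exon 5 inclusion was higher in siSFSWAP/siUPF1 than in siNT/siUPF1 cells in all 15 alternatives, by 0.111 to 0.199 when single libraries were left out. Adjusted p ran from 0.181 to 0.599 in the fits, and p was 0.1 in the exact permutation test of the shares of reads leaving exon 4. Another minimum of reads or another dispersion cannot change the difference of 0.168. Those alternatives bear on the p-value only and say nothing on the direction, in this comparison or the others. In siNT/siUPF1 against siNT cells the difference ranged from 0.0364 to 0.227 without single libraries. In siSFSWAP/siUPF1 against siSFSWAP cells it ranged from -0.0958 to 0.00415, and changed sign only without siSFSWAP library 3 (0.00415, adjusted p = 0.997). In siSFSWAP against siNT cells, the 4 called member events became 2 with no filter on low counts, 2 with limma on log2 odds at a pseudocount of 0.5, and 0 with each event's own dispersion, and stayed between 4 and 4 without single libraries, where the difference of exon 5 ranged from 0.243 to 0.434. The cause was not tested. Over all skipped exons, limma on log2 odds called 17 events where the quasi-binomial fit called 2558 for SFSWAP knockdown with UPF1 knocked down, 1239 against 4052 with UPF1 present, and 0 against 332 and 0 against 21 for UPF1 knockdown with SFSWAP present and knocked down. Over retained introns these counts were 1 against 182, 0 against 610, 1 against 2 and 0 against 5. The forms of exon 5 to exon 7 and the shares of reads leaving exon 4 were added after the data were seen. An alternative with a negative binomial count model was planned and not run. No paired analysis was possible because the tables do not number the replicates within a group. The number of reads limits the member results: exon 5 had 2 to 55 skipping reads per library, and ALDH18A1 exon 5 had 0 to 14.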
